A study of Rattus norvegicus with 30 samples.

Results

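The genes described here encode the clotting factors, their inhibitors, the enzymes of fibrin breakdown and the plasma kinin system, 37 genes in all out of 18166 genes measured in rat liver. They were chosen by name, with earlier results of these data known. Each was represented by 1 probe set annotated with that gene symbol alone. All 37 were measured. The livers came from Wistar rats labelled as wildtype. Partial hepatectomy had removed 30% of the liver in the PH30 group, 70% in PH70 and 90% in PH90, while sham rats were operated on without resection and unoperated rats served as a baseline. Each of these 5 groups held 6 rats, and each rat gave 1 array. Livers of operated rats were taken 24 hours after surgery, and tissue was frozen. Values are centred log2 values: the median of each probe set over the 30 arrays is 0, so that they show differences between rats and not how abundant a transcript is. The unoperated rats carry the highest animal numbers, so the order of the animals and the absence of surgery cannot be told apart in comparisons with them.

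Blood clots when a chain of proteases, most of them secreted by hepatocytes as inactive precursors, ends in thrombin, which turns fibrinogen into fibrin. The chain is held back by antithrombin and related serpins and by the protein C system, in which thrombomodulin and the endothelial protein C receptor present protein C to thrombin on the vessel wall, and fibrin is removed by plasmin, made from plasminogen by tissue-type and urokinase-type activators. Several factors need a vitamin K-dependent carboxylation in the hepatocyte before they can bind membranes. The plasma kinin system overlaps with the start of the chain, since factor XII and plasma kallikrein activate one another and kallikrein releases bradykinin from kininogen.

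Before the genes themselves, 2 rats need mention. PH30 rat 95 had a mean correlation over all genes of -0.113 with the other PH30 arrays, against 0.180 to 0.245 for the remaining 5, and PH70 rat 139 had -0.114 with the other PH70 arrays, against 0.493 to 0.546 for the remaining 5. Rat 95 correlated best with the PH70 arrays, at 0.498, where the other PH30 rats had -0.101 to 0.221. Rat 139 correlated best with the sham arrays, at 0.203, where the other PH70 rats had -0.438 to -0.371. The reason was not tested. Among the 37 coagulation genes rat 95 lay below all other PH30 rats for 19, and rat 139 above all other PH70 rats for 25. Both stay in the values below, and counts without them are given where they matter. Tissue identity could not be checked by level because levels are not kept. Of 5 hepatocyte markers measured, Alb (albumin) differed by -0.07 (adjusted p = 0.11) between PH90 and sham livers, Ttr and Hnf4a were lower and Tat was higher. Cps1 was not called, with -0.04 to 0.55 in PH90 rats and -0.09 to 0.24 in sham rats.

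Most of the coagulation genes differed after removal of 90% of the liver. In PH90 against sham livers 9 of the 37 rose and 23 fell, and 5 did not pass the test (limma, adjusted over all genes). The called genes make up 86.5% of the 37, where 34.6% of all genes were called, with 19.9% up and 14.7% down. The median change was -0.54 on the log2 scale, beside 0 over all genes. The PH90 and sham rats did not overlap for 32 of the 37, where 20.6% of all genes had no overlap. After 70% resection 1 gene rose and 13 fell (18.6% of all genes were called, with 10.5% up and 8.15% down), and after 30% resection none of the 37 rose and 7 fell (5.53% of all genes were called, with 2.2% up and 3.34% down). The median changes were -0.17 and -0.06, beside -0.01 and 0.01 over all genes. These 3 comparisons share the same 6 sham rats. Across the 5 groups 35 of the 37 differed in the fit of all 30 rats (42.7% of all genes did). The exceptions were Tfpi, the tissue factor pathway inhibitor (adjusted p = 0.25), and F13a1, the catalytic subunit of factor XIII (adjusted p = 0.26). In bulk tissue fewer cells of a type and less RNA per cell cannot be told apart.

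**Figure D1:**
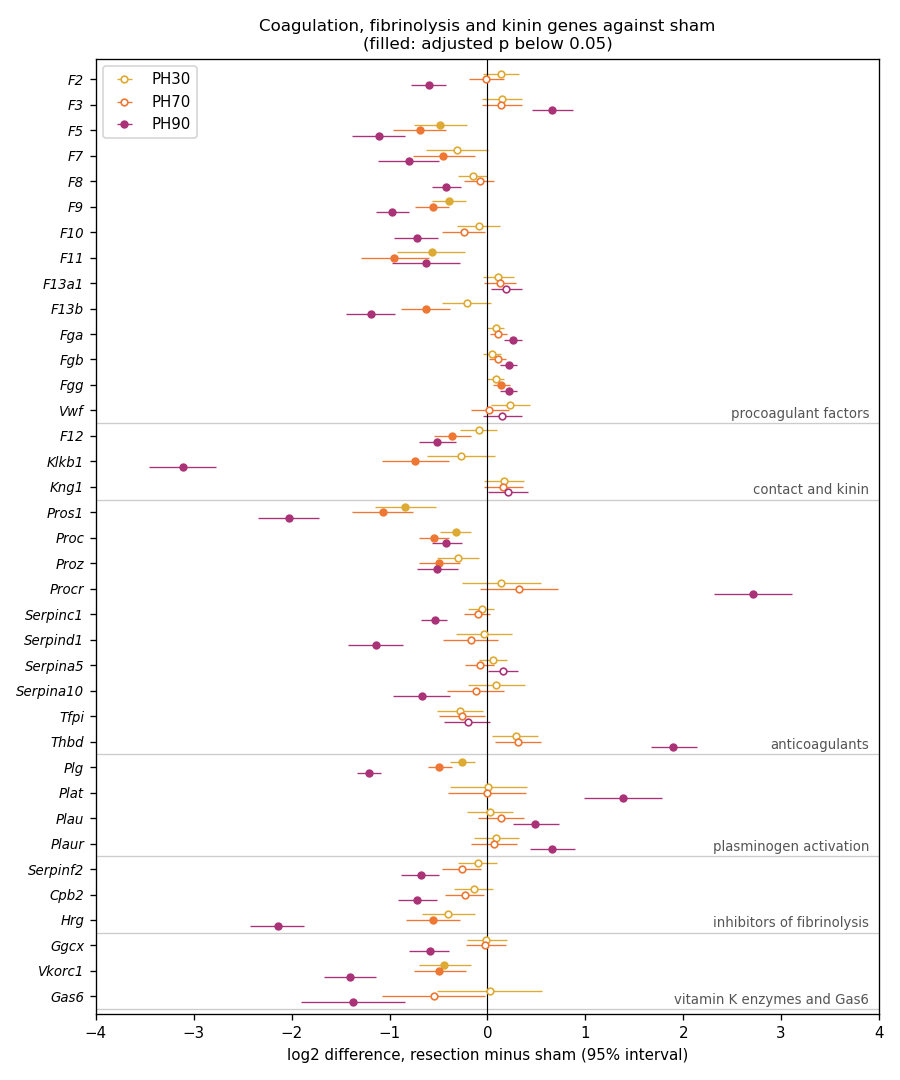
Log2 differences of the 37 genes between each resection and sham, with 95% intervals from limma, grouped by role. Filled points passed an adjusted p of 0.05. The PH90 points reach from -3.11 for Klkb1 to 2.71 for Procr, and the PH30 points from -0.84 to 0.29.

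Of the 14 procoagulant genes 8 fell and 4 rose in PH90 against sham livers, where 14.7% of all genes fell and 19.9% rose. The 8 that fell were factors II, V, VII, VIII, IX, X and XI and the carrier subunit of factor XIII. F9, the protease missing in haemophilia B, had centred log2 values of -0.80 to -0.36 in PH90 rats (median -0.56) and of 0.30 to 0.46 in sham rats (median 0.38). The groups lay well apart, and the difference was -0.97 (SE 0.09, adjusted p = 2.2e-10), a 1.96-fold fall. F5, the cofactor of factor X, ran from -1.01 to -0.30 in PH90 rats (median -0.71), against 0.20 to 0.64 in sham rats (median 0.42), and fell 2.16-fold (-1.11, SE 0.13, adjusted p = 5.8e-08). F13b, which carries factor XIII in plasma, fell 2.28-fold (-1.19, SE 0.12, adjusted p = 4.5e-09). F2, which encodes prothrombin, lay at -0.95 to -0.39 in PH90 rats and within -0.08 to 0.04 in sham rats, a 1.51-fold fall (-0.60, SE 0.09). F7, F10 and F8 fell by 0.80, 0.72 and 0.42. In PH90 rats F8, the cofactor missing in haemophilia A and made largely by endothelial cells of the liver, ran from -0.66 to -0.07, against 0.02 to 0.24 in sham rats.

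F11, the zymogen that activates factor IX, had its lowest mean in PH70 livers. Its difference from sham was -0.57 (SE 0.17, adjusted p = 0.042) in PH30, -0.95 (SE 0.17, adjusted p = 0.00015) in PH70 and -0.63 (SE 0.17, adjusted p = 0.0036) in PH90 livers. The PH70 rats lay at -1.08 to -0.07 and the PH90 rats at -0.63 to 0.07, with sham rats at 0.03 to 0.66. The direct comparison of PH90 with PH70 livers gave 0.32 for F11 and did not pass the test. F11 fell in both PH70 and PH90 livers also against unoperated rats (-0.95 and -0.63).

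F3, which encodes tissue factor, the membrane receptor that starts clotting when it meets factor VII, rose in PH90 livers. Its values were 0.34 to 0.71 in PH90 rats (median 0.52) and -0.38 to 0.17 in sham rats (median -0.12), without overlap, and the difference was 0.66 (SE 0.10, adjusted p = 3.5e-06), a 1.58-fold rise. In PH30 and PH70 livers F3 differed from sham by 0.15 and 0.14, neither of which passed. Vwf, the carrier of factor VIII in plasma and a tether of platelets, differed by 0.15 (adjusted p = 0.24) and F13a1 by 0.19 (adjusted p = 0.05), with PH90 rat 106 (0.36) and sham rat 141 (-0.28) each apart from its group.

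The fibrinogen chains also rose, by small amounts. In PH90 rats Fga had values of 0.14 to 0.24 (median 0.20) and Fgb of 0.08 to 0.22 (median 0.18), while in sham rats they had -0.11 to 0.01 and -0.10 to 0.01. Fgg lay at 0.08 to 0.20 in PH90 rats and at -0.13 to -0.01 in sham rats. None of the 3 chains overlapped between these groups, where 20.6% of all genes had no overlap. The differences were 0.26 (SE 0.04, adjusted p = 9.1e-06), 0.22 (SE 0.04, adjusted p = 0.00012) and 0.22 (SE 0.04, adjusted p = 6.6e-05), which is 1.2-fold for Fga and 1.16-fold for Fgb and Fgg. Against unoperated rats the chains were higher after every resection: Fga by 0.31, 0.33 and 0.48, Fgb by 0.20, 0.25 and 0.36 and Fgg by 0.22, 0.27 and 0.35 in PH30, PH70 and PH90 livers. Between sham and unoperated rats Fga was called (0.22, SE 0.04, adjusted p = 0.0063), and Fgb and Fgg differed by 0.15 and 0.13 without passing. In the RefSeq annotation (GRCr8) the genes are consecutive, with 0 other protein-coding genes between Fgg and Fga or between Fga and Fgb.

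Fibrinogen genes are known for promoters that carry both a liver-restricted element and an element for interleukin-6, the cytokine that drives acute phase proteins. The 250 bases before an annotated start of each chain are shown for that reason (RefSeq, GRCr8). Matches are in capitals to CTGGGAA, the core of the interleukin-6 type II element, and to GTTAAT, the core of the hepatocyte nuclear factor 1 element. Matches to TGANTCA, the AP-1 element, are in capitals too. Each was searched on both strands, and no 2 matches overlap in the sequences shown. All 3 are letters in a window and not shown to be bound. The Fga window, the first of 2 annotated ones, is chr2:170671919-170672168 on the plus strand, the Fgb window is chr2:170700876-170701125 on the minus strand and the Fgg window is chr2:170652833-170653082 on the plus strand.
Fga: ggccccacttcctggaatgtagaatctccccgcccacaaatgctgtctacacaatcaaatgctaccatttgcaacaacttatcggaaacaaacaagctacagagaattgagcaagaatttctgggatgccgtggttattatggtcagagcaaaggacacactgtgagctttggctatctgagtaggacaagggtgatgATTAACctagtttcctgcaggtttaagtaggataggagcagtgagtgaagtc
Fgb: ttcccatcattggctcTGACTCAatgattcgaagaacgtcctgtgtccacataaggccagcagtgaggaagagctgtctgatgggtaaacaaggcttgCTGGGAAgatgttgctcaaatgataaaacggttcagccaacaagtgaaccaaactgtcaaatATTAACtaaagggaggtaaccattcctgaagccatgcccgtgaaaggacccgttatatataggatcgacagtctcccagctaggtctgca
Fgg: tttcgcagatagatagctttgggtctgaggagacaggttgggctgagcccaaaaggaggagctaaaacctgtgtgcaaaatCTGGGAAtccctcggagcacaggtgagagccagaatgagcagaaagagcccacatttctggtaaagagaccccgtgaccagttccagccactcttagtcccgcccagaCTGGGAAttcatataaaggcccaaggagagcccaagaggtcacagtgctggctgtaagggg
CTGGGAA occurs 1 time before Fgb, at -152 to -146 from the start, and 2 times before Fgg, at -169 to -163 and -61 to -55. The Fga window holds none. RefSeq's Fgg gene begins at 170652929, inside its window, so the match at -61 to -55 lies within the annotated gene. GTTAAT lies on the opposite strand, and so reads ATTAAC above, at -52 to -47 before Fga and at -90 to -85 before Fgb. TGANTCA stands at -234 to -228 before Fgb. Of all 33469 rat promoter windows of this length 9.56% hold CTGGGAA, 6.45% GTTAAT and 6.34% TGANTCA. Of the 30 windows found for 28 of the 37 coagulation genes 8 hold CTGGGAA (26.7%), 8 hold GTTAAT (26.7%) and 4 hold TGANTCA (13.3%). The GTTAAT matches stand before F2, F13b, Fga (2 overlapping windows), Fgb, Proc, Tfpi and Plg. CTGGGAA matches stand before F9, Fgb, Fgg, Kng1, Serpinc1, Tfpi, Plg and Gas6, and TGANTCA matches before F5, Fgb, Procr and Plaur. Of the genes with these latter motifs, F9, Serpinc1, Plg, Gas6 and F5 fell in PH90 against sham livers. Fgb, Fgg, Procr and Plaur rose, and Kng1 and Tfpi did not pass.

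Klkb1 showed the largest fall of the 37 in PH90 against sham livers. It encodes plasma prekallikrein, the protease that frees bradykinin from kininogen and activates factor XII. Values ran from -3.32 to -2.49 in PH90 rats (median -2.75) and from 0.05 to 0.48 in sham rats (median 0.30), a gap far wider than either group. The fall was 8.66-fold (-3.11, SE 0.17, adjusted p = 1.6e-14), and against PH70 livers it was 5.2-fold (-2.38, SE 0.17, adjusted p = 1.5e-11). In PH70 livers Klkb1 fell by 0.74 (adjusted p = 0.0022), with rat 139 at 0.39 and the other 5 rats at -0.93 to -0.43. Klkb1 and F11, which are homologous proteases, stand next to each other in the RefSeq annotation with 0 protein-coding genes between them. Their falls in PH90 livers were 3.11 and 0.63. F12, the contact factor, fell by 0.51 (SE 0.09, adjusted p = 4.3e-05), with -0.70 to -0.12 in PH90 rats and -0.02 to 0.18 in sham rats.

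Kng1, annotated as kininogen 1, the precursor of bradykinin, separated the operated rats from the unoperated ones, while its difference from sham did not pass after any resection. Its values were -1.95 to -1.64 in unoperated rats, -0.53 to 0.12 in sham, -0.31 to 0.31 in PH30, -0.05 to 0.21 in PH70 and -0.15 to 0.22 in PH90 rats. Every operated rat lay above every unoperated rat. Sham livers were 3.21-fold above unoperated ones (1.68, SE 0.10, adjusted p = 1.3e-12), and PH30, PH70 and PH90 livers were 1.85, 1.84 and 1.89 above them on the log2 scale. Between PH90 and sham livers the difference was 0.21 (95% interval 0.01 to 0.41, adjusted p = 0.095). The rat has further kininogen genes of closely similar sequence, the T-kininogens Kng2 and Kng2l1, and how far this probe set separates them is not known, so the Kng1 values are uncertain as to which kininogen they reflect. The 250 bases before Kng1 (GRCr8 chr11:91340149-91340398, minus strand) are shown because Kng1 had the largest difference of the 37 genes between sham and unoperated rats, with CTGGGAA in capitals at -82 to -76.
Kng1: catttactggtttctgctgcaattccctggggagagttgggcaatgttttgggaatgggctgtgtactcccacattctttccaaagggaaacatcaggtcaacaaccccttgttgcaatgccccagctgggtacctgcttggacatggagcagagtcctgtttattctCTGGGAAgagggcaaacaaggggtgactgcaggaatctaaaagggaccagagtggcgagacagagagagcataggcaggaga

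**Figure D2:**
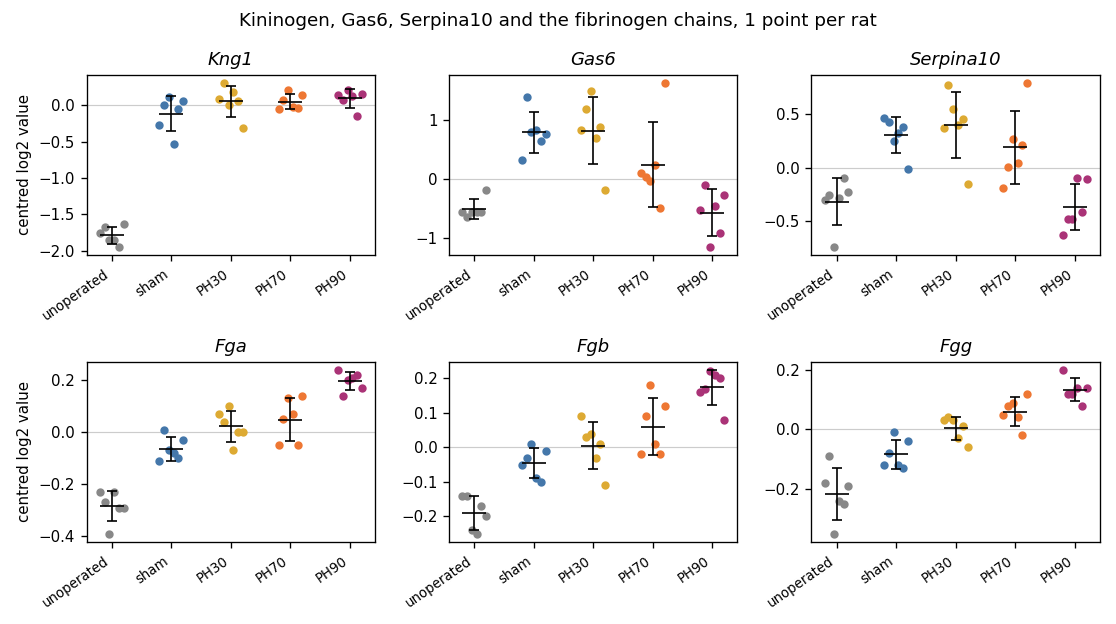
Centred log2 values of Kng1, Gas6, Serpina10, Fga, Fgb and Fgg in each rat, by group, with the mean and SD in black (n = 6). Kng1 is at -1.64 or below in unoperated rats and at -0.53 or above in all operated rats, whereas Gas6 and Serpina10 are lower in PH90 than in sham rats.

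Among 10 anticoagulant genes 6 fell and 2 rose in PH90 against sham livers, where 14.7% of all genes fell and 19.9% rose. The pair that rose encode the membrane receptors of the protein C system. Procr, the endothelial protein C receptor, had values of 2.02 to 3.47 in PH90 rats (median 2.25) and of -0.43 to 0.17 in sham rats (median -0.08). It rose 6.54-fold (2.71, SE 0.20, adjusted p = 5.1e-12), the largest rise of the 37 in this comparison. Thbd, or thrombomodulin, which turns thrombin into an activator of protein C, had 1.31 to 2.34 in PH90 rats (median 1.65) and -0.39 to -0.06 in sham rats (median -0.17), a 3.74-fold rise (1.90, SE 0.12, adjusted p = 1.3e-13). In PH30 livers the differences were 0.14 for Procr and 0.29 for Thbd, in PH70 livers 0.32 and 0.31, and none of these passed. Without rats 95 and 139 Thbd was called in PH70 livers (0.34, adjusted p = 0.047). PH90 stood above PH70 livers by 2.39 for Procr and 1.59 for Thbd (adjusted p = 2.3e-10 and 2e-11). Both genes are known from endothelial cells. Of 5 endothelial markers measured, Tie1 rose by 0.52, Clec4g, a lectin of liver sinusoids, fell by 1.45, and Cdh5, Lyve1 and Tek differed by 0.08, 0.17 and 0.10 without passing. The mean of the 5 was -0.25 to 0.13 in PH90 rats and -0.33 to 0.23 in sham rats, which overlap; their part in the Procr and Thbd values was not tested. The 250 bases before Procr (GRCr8 chr3:164714477-164714726, plus strand) are shown because of the size of this rise, with the 1 match, to TGANTCA at -217 to -211, in capitals.
Procr: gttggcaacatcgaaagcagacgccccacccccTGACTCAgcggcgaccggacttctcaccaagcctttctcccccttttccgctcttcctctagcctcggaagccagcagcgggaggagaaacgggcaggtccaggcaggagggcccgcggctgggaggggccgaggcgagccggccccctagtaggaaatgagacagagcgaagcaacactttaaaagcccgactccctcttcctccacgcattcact
No window was found for Thbd.

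**Figure D3:**
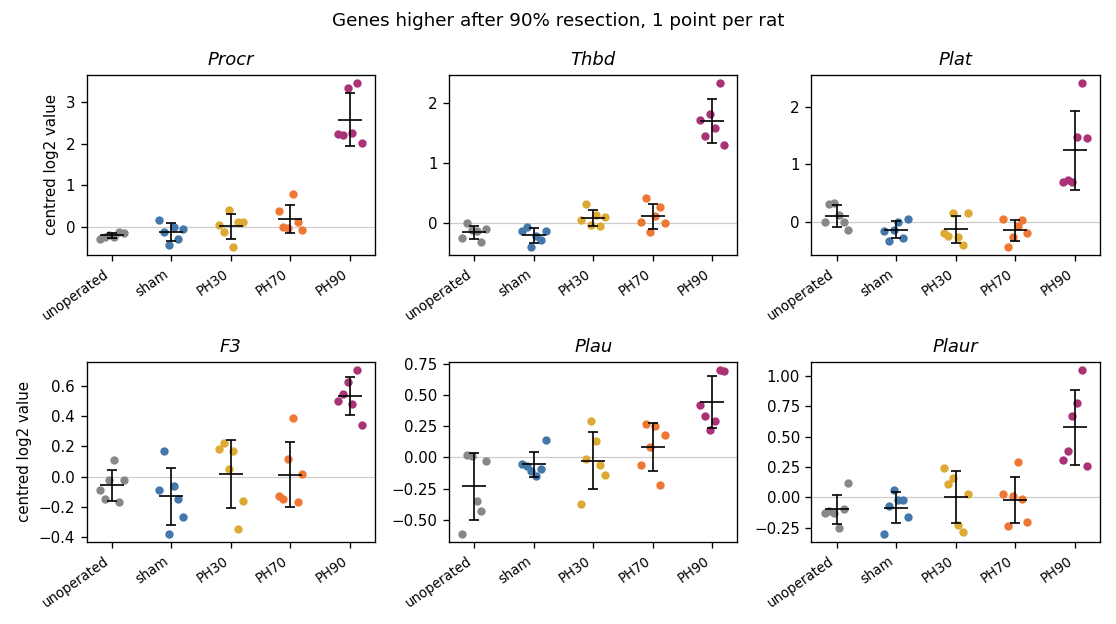
Centred log2 values of Procr, Thbd, Plat, F3, Plau and Plaur in each rat, by group, with the mean and SD in black (n = 6). The PH90 rats lie above all sham rats for each gene, and the PH30 and PH70 means stay within 0.32 of the sham mean.

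Of the 8 soluble anticoagulants 6 fell in PH90 against sham livers, where 14.7% of all genes fell. Pros1, or protein S, the cofactor of activated protein C, fell 4.09-fold in PH90 livers (-2.03, SE 0.15, adjusted p = 8.1e-12), with -1.58 to -1.27 in 5 PH90 rats and -0.62 in rat 111 (median -1.45) and 0.62 to 0.78 in sham rats (median 0.74). It fell by 0.84 in PH30 and by 1.07 in PH70 livers (adjusted p = 0.0032 and 1.3e-05), the largest change of the 37 in each. Proc, protein C itself, fell by 0.32, 0.55 and 0.42 in PH30, PH70 and PH90 livers, and its difference between PH90 and PH70 livers was 0.13 and did not pass. Serpind1, heparin cofactor II, which inhibits thrombin, fell 2.21-fold in PH90 livers (-1.14, SE 0.14, adjusted p = 8.2e-08). Its PH90 rats were spread from -1.96 to -0.55, against 0 to 0.10 in sham rats. Serpinc1, or antithrombin, fell 1.46-fold (-0.54, SE 0.07, adjusted p = 8.7e-08). Proz, the cofactor of the factor X inhibitor that Serpina10 encodes, fell by 0.51, with rat 111 at 0.16 and the other PH90 rats at -0.35 to -0.18, and Serpina10 fell by 0.67. Tfpi differed by -0.20 (adjusted p = 0.19) and Serpina5, the protein C inhibitor, by 0.16 (adjusted p = 0.092).

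The genes of vitamin K-dependent clotting proteins and of the enzymes that serve them fell in PH90 livers. The clotting proteins of this kind among the 37, grouped here after their values had been seen, are F2, F7, F9, F10, Proc, Pros1 and Proz, and 7 of 7 fell, with changes of -2.03 to -0.42. In PH70 livers 5 of 7 fell and in PH30 livers 3 of 7. Of all genes 14.7% were lower in PH90, 8.15% in PH70 and 3.34% in PH30 livers. Gas6, also vitamin K-dependent but not counted here, fell in PH90 livers. It differed by 0.03 in PH30 and -0.55 in PH70 livers without passing. Vkorc1, the reductase that recycles vitamin K and is the target of warfarin, fell 2.64-fold in PH90 livers (-1.40, SE 0.13, adjusted p = 5.3e-10), with -1.35 to -0.60 in PH90 rats (median -1.01) and 0.23 to 0.59 in sham rats (median 0.41). It also fell by 0.44 in PH30 livers (adjusted p = 0.043) and by 0.49 in PH70 livers (adjusted p = 0.0069). Ggcx, the carboxylase that uses the vitamin, fell by 0.59 in PH90 livers (SE 0.10, adjusted p = 1.7e-05) and differed by -0.01 in PH30 and -0.02 in PH70 livers without passing. F7, F10 and Proz stand in a row in the RefSeq annotation, with 0 protein-coding genes between neighbours, and fell by 0.80, 0.72 and 0.51.

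Plasminogen and its activators moved in opposite directions in PH90 livers. Plg, made by hepatocytes, fell 2.31-fold (-1.21, SE 0.06, adjusted p = 1.5e-15), and its 6 PH90 rats lay within -1.04 to -0.93, with sham rats at 0.15 to 0.30. Plg also fell by 0.26 in PH30 and by 0.49 in PH70 livers (adjusted p = 0.011 and 4.5e-06), without overlap with sham in either, where 3.89% and 7.34% of all genes had no overlap. Plat, the tissue-type activator, rose 2.61-fold in PH90 livers (1.38, SE 0.19, adjusted p = 7.7e-07), with a wide spread of 0.68 to 2.41 (median 1.09), against -0.33 to 0.04 in sham rats (median -0.15). Plau, the urokinase-type activator, rose 1.41-fold (0.49, SE 0.11, adjusted p = 0.00086), and its receptor Plaur rose 1.58-fold (0.66, SE 0.11, adjusted p = 2.3e-05), with 0.26 to 1.05 in PH90 rats and -0.30 to 0.06 in sham rats. For Plat, Plau and Plaur the differences from sham lay between 0 and 0.14 in PH30 and PH70 livers and none passed. Plau and Plaur are also expressed by myeloid cells. Of 5 neutrophil markers S100a8, S100a9 and Cxcr2 rose by 0.56, 0.50 and 0.41 in PH90 livers, and the mean of the 5 was 0.03 to 0.43 in PH90 rats and -0.19 to 0.01 in sham rats. Of 7 macrophage markers 4 fell and 1 rose, where 14.7% of all genes fell and 19.9% rose. The mean of the 7 was -0.72 to -0.05 in PH90 rats and -0.06 to 0.24 in sham rats, which overlap narrowly. The part of either cell type in the Plau and Plaur values was not tested.

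The 3 inhibitors of fibrin breakdown all fell in PH90 against sham livers, where 14.7% of all genes fell. Hrg, the histidine-rich glycoprotein, which binds plasminogen and heparin, fell 4.41-fold (-2.14, SE 0.13, adjusted p = 2.5e-13), with -2.23 to -1.16 in PH90 rats (median -1.99) and 0.13 to 0.45 in sham rats (median 0.29). Cpb2, a carboxypeptidase that protects fibrin from plasmin once thrombin has activated it, fell 1.65-fold (-0.72, SE 0.10, adjusted p = 4.2e-07). Serpinf2, or alpha-2-antiplasmin, fell 1.61-fold (-0.68, SE 0.10, adjusted p = 1.2e-06). In PH70 livers Hrg fell by 0.56 (adjusted p = 0.003), while Cpb2 and Serpinf2 differed by -0.23 and -0.26 without passing. Without rats 95 and 139 both were called there (-0.32 and -0.34, adjusted p = 0.0033 and 0.0041).

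**Figure D4:**
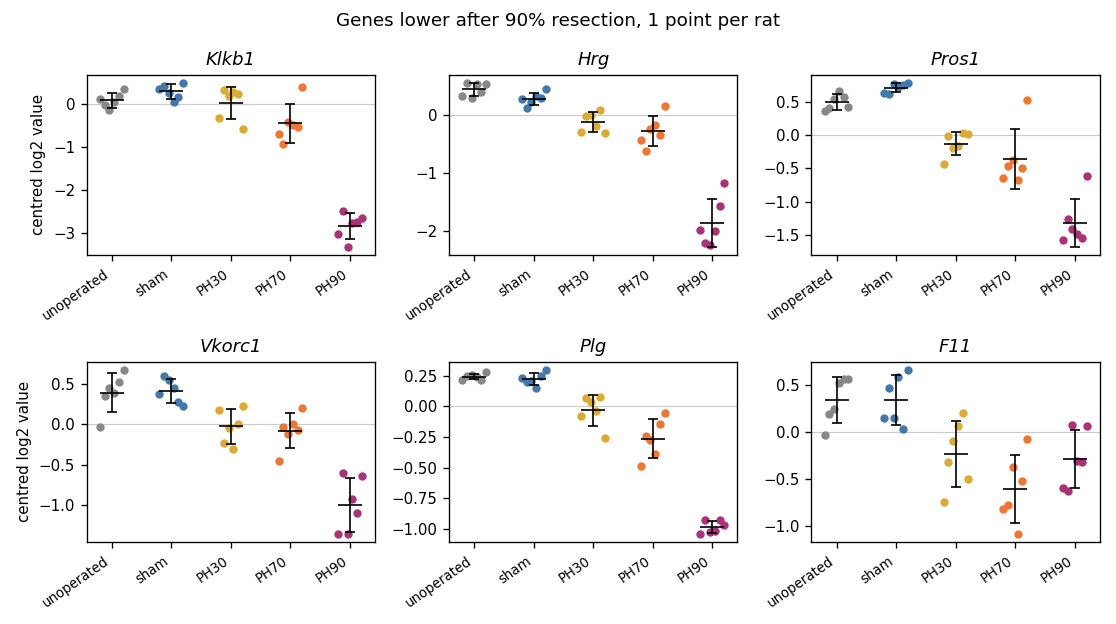
Centred log2 values of Klkb1, Hrg, Pros1, Vkorc1, Plg and F11 in each rat, by group, with the mean and SD in black (n = 6). All but F11 are lowest in PH90 rats, and for F11 the mean is lowest in PH70 rats. The PH70 point that stands above its group in Klkb1 and Pros1 is rat 139.

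After the smaller resections the called genes were nearly all falls. In PH30 livers the 7 were Pros1, F9, F5, F11, Proc, Plg and Vkorc1, with falls of 0.26 to 0.84. Without rats 95 and 139 Proz (-0.3, adjusted p = 0.011) and Tfpi (-0.38, adjusted p = 0.0084) were called lower as well. In F9 the PH30 rats had -0.14 to 0.19 and the sham rats 0.30 to 0.46, a fall of 0.39 (SE 0.09, adjusted p = 0.0081), but against unoperated rats, at 0.05 to 0.14, the difference was -0.10 (adjusted p = 0.52). F5 likewise differed from unoperated rats by -0.22 (adjusted p = 0.32). Leaving out 1 rat of the groups compared at a time, in 12 fits, the call of F5 was lost in 6 (changes of -0.55 to -0.40), that of F11 in 9 (-0.66 to -0.47) and that of Vkorc1 in 9 (-0.49 to -0.38). The number of the 37 genes called was 4 without PH30 rat 99 or without sham rat 141 (4.04% and 3.8% of all genes were called). In PH70 livers the 13 falls were these 7 and F7, F13b, F12, Klkb1, Proz and Hrg, and the 1 rise was Fgg (0.14, SE 0.04, adjusted p = 0.011). F7 fell by 0.45 (adjusted p = 0.043), with PH70 rat 139 at 0.99 and the other 5 at -0.55 to -0.07. Without rats 95 and 139 the PH70 livers had 18 falls and 2 rises among the 37 (23.7% of all genes were called). The call of F7 was lost in 9 of 12 fits that left out 1 rat, with changes of -0.65 to -0.34. Against unoperated rats F7 differed by -0.10 (adjusted p = 0.78), or by -0.30 (adjusted p = 0.031) without rats 95 and 139. Proz in PH70 livers differed from unoperated rats by -0.25 (adjusted p = 0.1), or by -0.37 (adjusted p = 0.0006) without rats 95 and 139.

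Set against each other, PH70 and PH30 livers differed in 1 of the 37 genes (2.27% of all genes were called, 1.76% higher and 0.512% lower), Plg, which was lower in PH70 by 0.23 (SE 0.06, adjusted p = 0.039). This count depended on rats 95 and 139. Without both of them 15 genes were lower in PH70 than in PH30 livers and none was higher (13.3% of all genes were called), among them Gas6 by 1.05, Klkb1 by 0.76, F13b by 0.59, F11 by 0.53 and F12 by 0.41. Without PH30 rat 95 alone 7 were called (10.5% of all genes were), and without PH70 rat 139 alone 9 (7.74% of all genes were). Without any other single rat limma called 0 of the 37, where 0.0991 to 0.694% of all genes were called, and the adjusted p of Plg reached 0.11. PH90 differed from PH70 livers in 26 of the 37 genes, 8 higher and 18 lower (24.5% of all genes were called, 14.1% higher and 10.4% lower), and from PH30 livers in 29, 9 higher and 20 lower (31.5% of all genes were called, with 18.4% up and 13.1% down). The 8 genes higher in PH90 than in PH70 livers were Procr, Thbd, Plat, Plaur, F3, Plau, Serpina5 and Fga, with differences of 0.15 to 2.39. The lower ones were led by Klkb1 (-2.38), Hrg (-1.58), Serpind1 (-0.97), Pros1 (-0.96) and Vkorc1 (-0.91). Quantile normalization before the fit acted on the centred values and gave every array the same distribution, which narrows arrays with wide differences. A call lost under it may reflect that narrowing, which was not tested. This normalization left 13 of the 26 calls. Of the 8 higher genes it lost F3 (0.32, adjusted p = 0.062), Plau (0.18, adjusted p = 0.48), Serpina5 (0.21, adjusted p = 0.059) and Fga (0.08, adjusted p = 0.42), and of the lower ones it gave -0.25 for Pros1 (adjusted p = 0.37) and -0.06 for F13b (adjusted p = 0.87), which was -0.56 without it.

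In sham against unoperated livers 4 of the 37 genes were higher and none was lower (0.738% of all genes were called, 0.308% higher and 0.429% lower): Kng1, Fga, Gas6 and Serpina10. Gas6, the vitamin K-dependent ligand of the TAM receptors Tyro3, Axl and Mertk, had 0.33 to 1.39 in sham rats (median 0.78) and -0.64 to -0.18 in unoperated rats (median -0.55), a 2.47-fold rise (1.30, SE 0.26, adjusted p = 0.0088). Serpina10, the protein Z-dependent inhibitor of factor X, had -0.01 to 0.46 in sham rats and -0.74 to -0.10 in unoperated rats, a rise of 0.62 (SE 0.14, adjusted p = 0.027). That call was lost in 7 of the 12 fits that left out 1 rat, with changes of 0.54 to 0.69. Set against the unoperated rats, 7 of the 37 genes were higher and 6 lower in PH30 livers (9.85% of all genes were called, 3.48% higher and 6.37% lower), 6 higher and 12 lower in PH70 livers (18.5%, 9.31% and 9.17%), and 11 higher and 21 lower in PH90 livers (33.8%, 19.3% and 14.5%). Gas6 was 1.33, 0.75 and -0.07 from unoperated rats in PH30, PH70 and PH90 livers (adjusted p = 0.0013, 0.041 and 0.9). The PH70 value was 0.48 (adjusted p = 0.051) without rats 95 and 139, and with only the PH70 and unoperated rats in the fit its adjusted p was 0.055. Serpina10 was 0.72, 0.51 and -0.05 from them (adjusted p = 0.0014, 0.011 and 0.85), while Kng1 was 1.84 to 1.89 above them. Against sham, Gas6 fell by 1.37 (SE 0.26, adjusted p = 8.2e-05) and Serpina10 by 0.67 (SE 0.14, adjusted p = 0.00028) in PH90 livers. In the 6 PH70 rats Gas6 ran from -0.49 to 1.63, and the highest value was that of rat 139. Without rats 95 and 139 the Gas6 difference between PH70 and sham livers was -0.83 (adjusted p = 0.00066), against -0.55 (adjusted p = 0.16) with all rats.

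Of 30 further genes of these pathways 26 were measured, and in PH90 against sham livers 6 rose and 6 fell, beside the 34.6% called among all genes. Anxa2 and S100a10, which together form a cell surface receptor for plasminogen and its tissue-type activator, rose 4.76-fold (2.25, SE 0.21, adjusted p = 7.5e-10) and 4.61-fold (2.20, SE 0.17, adjusted p = 1.5e-11). Anxa2 had 1.36 to 2.47 in PH90 rats and -0.80 to -0.01 in sham rats. S100a10 also rose by 0.64 in PH30 livers, and in PH70 livers Anxa2 and S100a10 rose by 0.69 and 1.08. A2m, a broad protease inhibitor, and F2r, the main thrombin receptor, rose by 1.58 and 0.98. The groups overlapped for A2m, with 0.56 to 1.35 in PH90 rats and a wide -2.5 to 0.73 in sham rats. Cpn1 and Cpn2, the subunits of carboxypeptidase N, which inactivates kinins, fell by 2.12 and 1.01, while Ace, which also degrades bradykinin, rose by 0.81. The inhibitor of factor XII and kallikrein encoded by Serping1 fell by 0.77, and Fgl1, a fibrinogen-like protein of hepatocytes, fell by 1.15. Serping1 and Fgl1 had risen by 0.68 and 1.27 in sham against unoperated rats, as had A2m by 3.28. The bradykinin receptors Bdkrb1 and Bdkrb2 differed by -0.03 and 0.18 in PH90 against sham livers and the Gas6 receptors Axl and Tyro3 by -0.04 and 0.09, none of which passed, and Mertk fell by 0.20.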

How the data were processed

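Per the labels' protocols, total RNA of each of the 30 livers was labelled and hybridised to its own Rat Gene 2.0 ST array (Affymetrix). The deposited values are taken to be log2 values made by the authors with RMA in Affymetrix Expression Console, per the submitters' processing notes. The sources used here name no version or genome build, and the table states no scale. The lowest deposited value is -6.04 and the highest 5.44; each probe set is centred, with a median of 0 across arrays, so that levels are lost. The number of arrays limits the precision.

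Of 29489 probe sets 18511 carry 1 gene symbol in the platform annotation, 575 several and 10403 none. Probe sets of 1 symbol were averaged per gene, giving 18166 genes. All 30 arrays were fitted with 1 mean per group in limma 3.58.1 (lmFit and eBayes, R 4.3.3, 25 residual degrees of freedom), and p-values were adjusted by the Benjamini-Hochberg method over all 18166 genes. A gene was called at an adjusted p below 0.05. The self-test on simulated data used the same fit. The coagulation genes and the other gene lists were chosen with earlier results of these data known. All 37 genes could be named, and of the further pathway genes up to 4 called ones per comparison and direction, by size of change. Ace, Mertk and the other kinin and Gas6 receptors lie outside that rule and were chosen after their values were seen. Further pathway genes with no probe set of 1 symbol were not analysed here. Groups were taken from the labels. Alternatives were array weights, quantile normalization, another probe set rule, fits of only the 2 groups compared, unoperated rats as the control, and fits without single rats or without rats 95 and 139. Promoter windows are RefSeq's (GRCr8), and gene order was read from the same annotation.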

Additional observations from a re-analysis of the deposited data

Results flagged for a closer look

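In 14 of the 185 groups of 6 rats (7.57%), 1 rat stood so far from the others that its gap to the nearest, divided by the range of the group, passed the critical value of 0.625. Chance alone passes it in about 1 in 20 groups. PH30 rat 95 accounted for 4 of them: it was lowest for F2 (-0.28, the others 0.10 to 0.29, ratio 0.671), F8 (-0.29, the others -0.02 to 0.05, ratio 0.783), F10 (-0.33, the others 0.03 to 0.24, ratio 0.627) and F12 (-0.52, the others -0.03 to 0.25, ratio 0.637). PH70 rat 139 accounted for 3: it was highest for F7 (0.99, the others -0.55 to -0.07, ratio 0.685), Pros1 (0.53, the others -0.68 to -0.38, ratio 0.752) and Gas6 (1.63, the others -0.49 to 0.24, ratio 0.658).

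PH90 rat 111 was highest for Pros1 (-0.62, the others -1.58 to -1.27, ratio 0.678) and Proz (0.16, the others -0.35 to -0.18, ratio 0.656). F13a1 was highest in PH90 rat 106 (0.36, the others 0.00 to 0.10, ratio 0.703) and lowest in sham rat 141 (-0.28, the others -0.07 to -0.02, ratio 0.798). Plau was highest in sham rat 143 (0.14, the others -0.15 to -0.05, ratio 0.664). Among unoperated rats, rat 147 was lowest for Serpina10 (-0.74, the others -0.30 to -0.10, ratio 0.690) and rat 151 was highest for Gas6 (-0.18, the others -0.64 to -0.55, ratio 0.795).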

How the results depend on the processing

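None of the 113 calls described below reversed its direction under the alternatives run on it. Differences that were not called could change sign, such as F12 in PH30 against sham livers (-0.09, and 0.02 without rats 95 and 139). The number of the 37 genes called was 7 in PH30 against sham livers, and became 11 with array weights, 11 with only these 2 groups in the fit and 13 with unoperated rats as the control. In sham against unoperated livers it was 4, and became 7 with array weights, with quantile normalization and with only the 2 groups. In PH70 against PH30 livers it was 1, and became 9 with array weights, 2 with quantile normalization, 15 without rats 95 and 139, and 0 with only the 2 groups. In PH90 against PH70 livers it was 26, and became 13 with quantile normalization. That normalization acted on centred values and narrows arrays with wide differences, so it cannot tell unstable calls from narrowed ones. Leaving out 1 rat at a time gave 4 to 7 in PH30 against sham, 13 to 20 in PH70 against sham, 32 to 34 in PH90 against sham, 3 to 4 in sham against unoperated, 0 to 9 in PH70 against PH30, 24 to 27 in PH90 against PH70 and 29 to 30 in PH90 against PH30 livers. Of 113 single calls, 18 lost significance with quantile normalization, 9 in some fit without 1 rat, 6 with only the 2 groups, 1 without rats 95 and 139, and 0 with array weights. Of the 53 calls against sham, 6 lost significance with unoperated rats as the control. The cause was not tested. The alternative probe set rule changed no value, since each of the 37 genes has 1 probe set. No paired analysis was possible because the groups share no replicate numbers.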
